A study of Mus musculus with 7 samples.

Results

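The epicardial transcription factor genes Wt1, Tbx18, Tcf21, Bnc1, Bnc2, Tbx5, Gata4, Gata5, Gata6 and Scx were followed by RNA sequencing in epicardial explants with and without lamin B1. They were chosen by name, as regulators known from the epicardium or its precursors, and all 10 were found among the 22738 gene rows of each library. The explants came from E12.5 mouse embryos on a mixed background of C57BL/6, 129S4Sv/Jae and 129S6/SvEvTac. Ventricles were laid on gelatin for 48 hours, removed, and the cells left behind were grown for another 72 hours. There were 4 wild type libraries and 3 Lmnb1-/- libraries, the latter null for the gene of the nuclear lamina protein lamin B1. The labels do not say how many embryos each library holds, so p-values measure the spread between these libraries, which may be partly technical.

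The epicardium is the mesothelial sheet that covers the heart. Some of its cells undergo an epithelial to mesenchymal transition, enter the heart wall and become fibroblasts and mural cells. WT1, a zinc finger protein, and TBX18, a T-box protein, are the usual markers of the sheet, and the bHLH protein TCF21 is needed for the fibroblast fate. GATA4 and GATA6 act early in the proepicardium, where GATA4 is needed for the epicardium to form. Basonuclins 1 and 2 are zinc finger proteins of epithelia and mesenchyme. TBX5 is best known in heart muscle and limb, and scleraxis, encoded by Scx, in tendon and valve precursors and in a part of the proepicardium.

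Of these genes, 6 kept clear expression in both groups and in every library, and their order by level was close to the same in both. Bnc1, Tbx18, Gata6, Tcf21, Gata4 and Wt1 had between 76 and 782 counts in each of the 7 libraries. The other 4, Scx, Gata5, Bnc2 and Tbx5, had at most 21 counts in any library. In the Lmnb1-/- explants the 6 abundant genes stood at 71.2 to 84.7% of the wild type level by the fitted fold changes, and none passed the test over all genes.

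The regions upstream of 4 of the genes are shown, those with a window before the gene in the RefSeq table used, so that 3 abundant genes, Bnc1, Tbx18 and Tcf21, can be set beside Gata5, which was near the limit of detection. Each is 200 bases of reference sequence, from 250 to 51 bases before the RefSeq start, on the minus strand of GRCm38.p6, read 5′ to 3′ along the gene. Bnc1 lies at chr7:81992350-81992549, Tbx18 at chr9:87731311-87731510, Tcf21 at chr10:22820194-22820393 and Gata5 at chr2:180334730-180334929. Capitals mark the motifs found on either strand.
Bnc1: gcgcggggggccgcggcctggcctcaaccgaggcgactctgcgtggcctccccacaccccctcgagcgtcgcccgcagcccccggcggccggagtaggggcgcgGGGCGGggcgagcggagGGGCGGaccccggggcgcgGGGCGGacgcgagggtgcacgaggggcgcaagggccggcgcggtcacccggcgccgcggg
Tbx18: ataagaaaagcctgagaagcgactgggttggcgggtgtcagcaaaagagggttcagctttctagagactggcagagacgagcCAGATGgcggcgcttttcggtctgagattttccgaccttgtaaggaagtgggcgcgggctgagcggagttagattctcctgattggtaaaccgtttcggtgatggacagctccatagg
Tcf21: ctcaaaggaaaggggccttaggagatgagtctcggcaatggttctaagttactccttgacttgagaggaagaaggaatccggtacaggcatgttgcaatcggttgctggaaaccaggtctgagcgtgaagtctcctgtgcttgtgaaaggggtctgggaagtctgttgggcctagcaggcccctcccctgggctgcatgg
Gata5: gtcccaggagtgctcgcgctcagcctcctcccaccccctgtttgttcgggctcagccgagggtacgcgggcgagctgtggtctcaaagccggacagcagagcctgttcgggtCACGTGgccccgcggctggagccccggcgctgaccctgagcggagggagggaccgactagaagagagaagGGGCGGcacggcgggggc

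No motif searched was in all 4 stretches. The letters searched were AGATAA for GATA proteins, AGGTGTGA for T-box proteins, CANNTG for bHLH proteins, GCGTGGG for WT1 and EGR proteins, and GGGCGG, the GC box. Bnc1 held 35 CpG dinucleotides and 3 GC boxes, Gata5 held 19 and 1, Tbx18 held 12 and 0, and Tcf21 held 4 and 0, against a median of 4 CpG over 32851 such windows. GGGCGG occurred in 24.6% of all windows. CANNTG, found once in Tbx18 and once in Gata5, occurred in 59.0%. AGATAA, AGGTGTGA and GCGTGGG were in none of the 4 stretches and in 8.42%, 0.922% and 3.27% of all windows. The window listed for Bnc2 lies inside the gene and is not shown.

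Levels are CPM, scaled to the library's total over the tested genes with TMM factors. Total counts ran from 1024898 to 3066936 per library, and Lmnb1 itself had 185 to 567 counts in wild type and 2 to 4 in Lmnb1-/- libraries, as labelled. Wild type replicates 1 and 3 were female by Xist, and the other 5 libraries male. Fold changes and p-values come from an edgeR quasi-likelihood fit, adjusted by the Benjamini-Hochberg method over the 10775 genes tested. Of these 0.705% passed at an adjusted p of 0.05, 0.362% higher and 0.343% lower in Lmnb1-/- explants. Intervals are 95% intervals of the single gene and are not adjusted. In bulk RNA, fewer cells of a type and less RNA per cell cannot be told apart.

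With TMM scaling, Wt1 was slightly lower in every Lmnb1-/- library. It was at 65.2, 81.6, 58.0 and 62.0 CPM in wild type replicates 1 to 4 and at 57.2, 52.2 and 53.4 CPM in Lmnb1-/- replicates 1 to 3. The ranges lay apart by less than 1 CPM, and wild type replicate 2, the shallowest library, was the highest. On totals without scaling, wild type replicate 3 and Lmnb1-/- replicate 1 change order and the ranges overlap. The log2 fold change was -0.27 (SE 0.15, adjusted p = 0.443), with an interval that runs from 66.8 to 103% of the wild type level. Without wild type replicate 2 it was -0.17 (adjusted p = 0.659).

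Tbx18 differed more within wild type than between the groups. Its levels were 269, 233, 161 and 162 CPM in wild type and 189, 142 and 144 CPM in Lmnb1-/- explants. Wild type replicates 3 and 4 lay below Lmnb1-/- replicate 1, so the groups overlapped. The log2 fold change was -0.37 (SE 0.20, adjusted p = 0.452), and the interval covered 57.2 to 105% of wild type. Without wild type replicate 1 it was -0.20 (adjusted p = 0.555). Exons of Tbx18, Bnc1 and Gata5 overlap RNAs of the opposite strand, and the library kit keeps no strand, so reads of both cannot be told apart for these 3 genes.

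Tcf21 overlapped between the groups as well. It was at 61.8, 95, 58.0 and 85.2 CPM in wild type and at 69.5, 42.6 and 73.5 CPM in Lmnb1-/- explants, with the lowest value in Lmnb1-/- replicate 2. The log2 fold change was -0.24 (SE 0.22, adjusted p = 0.663), with an interval of 61.1 to 117% of wild type. Both male wild type libraries lay above both female ones, and within male libraries the log2 fold change was -0.52 (adjusted p = 0.276). Without Lmnb1-/- replicate 2 it was -0.05 (adjusted p = 0.962), without wild type replicates 2 and 4 in turn -0.12 and -0.14, and without Lmnb1-/- replicate 3 it was -0.36.

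Bnc1, the most abundant of the set, came nearest to a call. It was at 294, 325, 253 and 330 CPM in wild type and at 206, 219 and 216 CPM in Lmnb1-/- explants. Every Lmnb1-/- library lay below every wild type library, and the 3 Lmnb1-/- values were close together. The log2 fold change was -0.49 (SE 0.11, adjusted p = 0.0705), which is 71.2% of the wild type level with an interval of 60.2 to 84.2%. The adjusted p was 0.0209 with DESeq2, 0.0260 with no count filter, 0.0239 within male libraries, 0.0415 with groups of neighbouring library numbers as a block and 0.0437 without wild type replicate 1. It was 0.0533 to 0.244 under the other 13 alternatives, and the log2 fold change stayed between -0.62 and -0.43 under all 18.

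Its paralog Bnc2 was hardly detected. Bnc2 had 7, 2, 7 and 7 counts in wild type and 11, 6 and 7 in Lmnb1-/- libraries, which is 2.67 ± 0.442 CPM (SD, n = 4) and 3.50 ± 0.120 CPM (SD, n = 3). The Lmnb1-/- values lay above the wild type values without overlap, the reverse of Bnc1. Pooled over the libraries of a group, exact 95% Poisson intervals were 1.76 to 4.16 CPM and 2.25 to 5.22 CPM, which overlap and cover counting error only. Such an overlap is not a test of the difference. In the edgeR fit with no count filter the log2 fold change of Bnc2 was 0.35 (adjusted p = 0.820).

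Of the GATA genes, Gata6 was lower in each Lmnb1-/- library and Gata4 overlapped. Gata6 was at 114, 116, 98.3 and 109 CPM in wild type and at 76.2, 92.5 and 75.5 CPM in Lmnb1-/- explants. Its highest Lmnb1-/- value was below its lowest wild type value, and the log2 fold change was -0.42 (SE 0.12, adjusted p = 0.147), or 62.1 to 89.6% of wild type. Gata4 was at 129, 107, 78.0 and 86.4 CPM in wild type and at 87.1, 89.2 and 64.2 CPM in Lmnb1-/- explants. Wild type replicates 3 and 4 lay among the Lmnb1-/- libraries here, as they did for Tbx18. The log2 fold change of Gata4 was -0.31 (SE 0.18, adjusted p = 0.480), with an interval of 61.5 to 106% of wild type. Leaving out wild type replicate 1 gave -0.15, and leaving out Lmnb1-/- replicate 3 gave -0.17.

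Gata5 was near the limit of detection and showed no pattern by genotype. It had 10, 7, 6 and 5 counts in wild type and 7, 4 and 11 in Lmnb1-/- libraries, or 3.99 ± 2.39 CPM (SD, n = 4) and 3.38 ± 1.97 CPM (SD, n = 3). Gata3, a GATA gene outside the set, had 9, 1, 5 and 5 counts against 21, 6 and 12. It stood at 2.23 ± 1.21 CPM (SD, n = 4 wild type libraries) against 5.43 ± 1.81 CPM (SD, n = 3 Lmnb1-/- libraries), with overlapping ranges and too few counts to enter the test. Gata1 and Gata2 had 0 to 2 counts in any library.

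Scx was the gene with the largest fitted change and one of the least abundant. It had 14, 7, 21 and 8 counts in wild type and 9, 5 and 5 in Lmnb1-/- libraries, or 6.09, 7.23, 7.91 and 3.37 CPM against 2.89, 2.80 and 2.57 CPM. Wild type replicate 4 lay close to the Lmnb1-/- libraries and the other 3 well above. The log2 fold change was -1.11 (SE 0.42, adjusted p = 0.268), with an interval of 24.7 to 86.7% of wild type, and it was -0.71 with library number groups as a block. Scx entered the test only through 3 wild type libraries that passed the count filter, against 0 of the Lmnb1-/- libraries, so its place among the tested genes rests on the wild type levels. Of 8 other genes of tendon, 3 were tested and 0 passed. Tnmd, Kera, Comp and Thbs4 had 0 to 2 counts in any library and Fmod had 0 to 6. The homeobox gene Mkx had 7 to 31 counts (log2 fold change -0.47, adjusted p = 0.540), Egr1 had 10 to 38, and the matrix gene Tnc had 1114 to 3803 (log2 fold change 0.25, adjusted p = 0.454).

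Tbx5 was at the edge of detection, with 14 counts in all. It had 4, 2, 2 and 1 counts in wild type and 0, 1 and 4 in Lmnb1-/- libraries. The 0 in Lmnb1-/- replicate 1 allows up to 0.965 CPM, taken as 3 counts and covering counting error only. The groups overlapped, at 1.25 ± 0.783 CPM (SD, n = 4) and 0.872 ± 1.06 CPM (SD, n = 3).

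**Figure D1:**
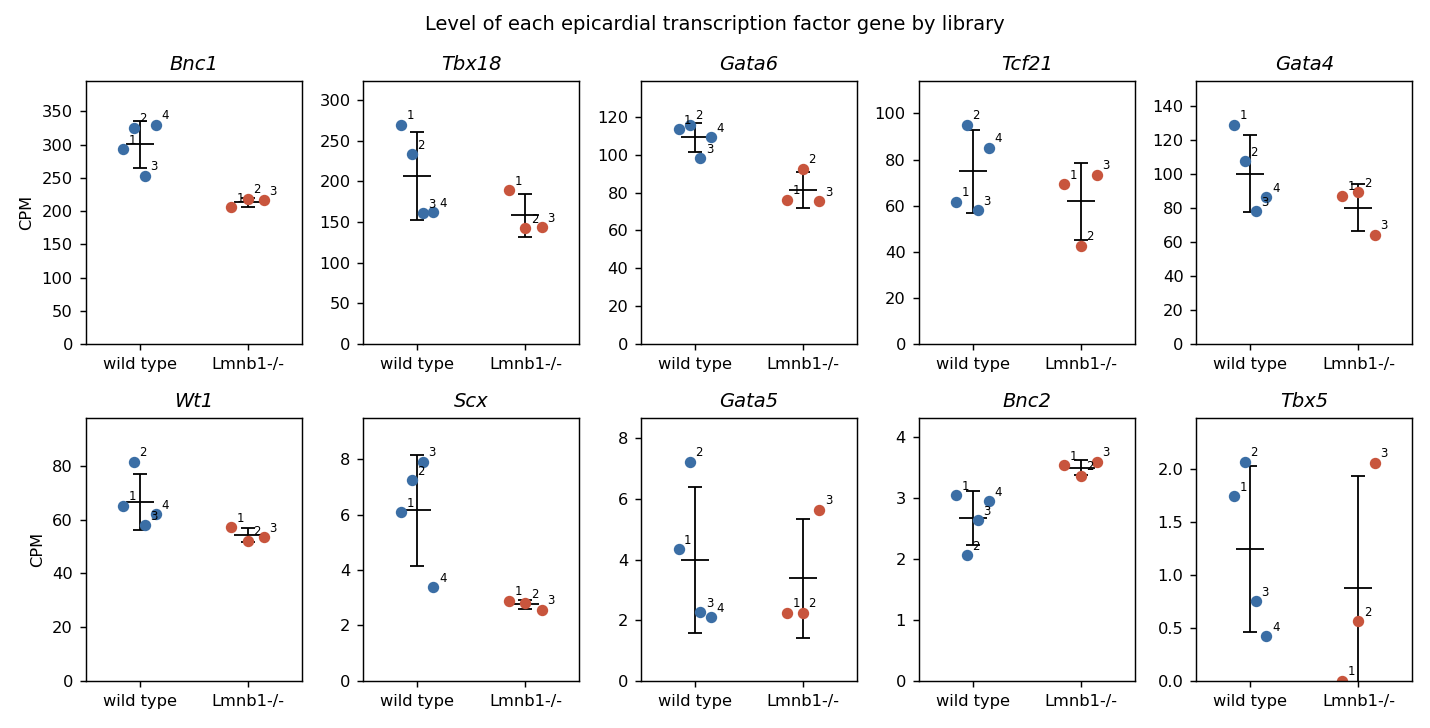
Level of each of the 10 genes in CPM (vertical axis from 0, scaled per gene) in wild type (blue, n = 4) and Lmnb1-/- libraries (red, n = 3). Points are libraries numbered by replicate, and bars are the mean ± SD. With TMM scaling, Wt1, Bnc1, Gata6 and Scx lie lower in every Lmnb1-/- library, Bnc2 higher, and the other 5 overlap. The gap of Wt1 closes without that scaling.

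Over the whole set, 0 of the 7 genes that passed the count filter were called by edgeR, against 0.705% of all tested genes. Bnc2, Tbx5 and Gata5 did not pass that filter. Of the 7, Bnc1, Gata6 and Scx, or 3, had an unadjusted p under 0.05, as did 13.6% of all tested genes. Scx entered the test only through wild type libraries, which bears on this count and on the ranges and signs below. DESeq2 called 1 of the 7, Bnc1, beside 175 calls over all 10775 tested genes. With limma voom 0 of the 7 were called, beside 46 calls over all tested genes. Ranges of the 2 groups lay apart for 4 of the 7 tested genes, Wt1, Bnc1, Gata6 and Scx, all lower in Lmnb1-/- explants. For Wt1 the gap rests on the TMM scaling. Of all tested genes 13.3% had ranges that lay apart, 6.92% lower and 6.36% higher. Bnc2, which was not tested, had ranges apart and higher, on 2 to 11 counts per library. The 7 tested genes were all below 0 with a median of -0.37, as were 52.4% of all tested genes (with Scx tested only through wild type). With no count filter, which keeps all 10 genes, 9 had log2 fold changes below 0, all but Bnc2, with a median of -0.34, while 50.5% of 16754 genes were below 0. The median over all 10775 tested genes was -0.02. The genes were chosen with earlier results of these data known, so these shares are a description.

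For single genes, in an exact two-sided permutation test of each gene's log2 CPM over the 35 ways to divide the libraries, Gata6 had p = 0.0286. That is the smallest p the design allows, and it is not adjusted for the 10 genes tested. Wt1, Bnc1, Bnc2 and Scx had p = 0.0571 in the same permutation test, and the other 5 genes ran from 0.229 to 0.771.

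**Figure D2:**
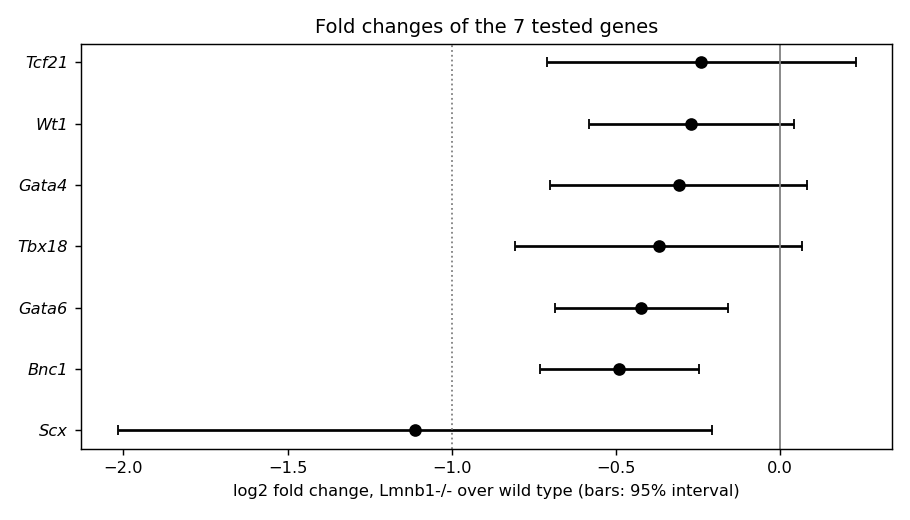
Log2 fold change of Lmnb1-/- over wild type (horizontal axis) for the 7 tested genes, with 95% intervals from edgeR's quasi-likelihood fit. All 7 estimates lie below 0, and the dotted line at -1 marks a halved level. For the 6 abundant genes the interval ends above that line, and only that of Scx crosses it.

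The lower bounds of these intervals show how far below wild type each abundant gene could lie in this fit, which had no covariate. The lowest bound among the 6 was 57.2% of wild type, for Tbx18, and the highest of the lower bounds was 66.8%, for Wt1. These bounds apply to this fit only. Under the 18 alternatives the lowest estimates of the 6 genes ran from -0.37 for Wt1 to -0.62 for Bnc1 on the log2 scale. No library lacked any of the 6 genes. The lowest single value was 42.6 CPM, for Tcf21 in Lmnb1-/- replicate 2.

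Per length, Bnc1 was the highest of the set and Tbx5 the lowest in both groups. Levels per kilobase of exon, on the linear CPM scale, were 64.7 ± 7.60 for Bnc1, 44.1 ± 11.5 for Tbx18, 33.8 ± 2.40 for Gata6, 31.9 ± 7.66 for Tcf21, 27.5 ± 6.24 for Gata4 and 19.8 ± 3.08 for Wt1 in wild type (SD, n = 4). Neighbours in this order overlapped in range down to Wt1. Scx at 5.94 ± 1.93 per kilobase lay apart from Wt1 above and from Gata5 at 1.22 ± 0.730 below (SD, n = 4). Gata5 overlapped Bnc2 at 0.603 ± 0.0996, and Bnc2 overlapped Tbx5 at 0.316 ± 0.199 (SD, n = 4).

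The order in Lmnb1-/- explants was the same but for Tcf21 and Gata6, which changed places and overlapped in both groups. Bnc1 stood at 46.0 ± 1.44 per kilobase there, Tbx18 at 33.8 ± 5.63, Tcf21 at 26.3 ± 7.14, Gata6 at 25.2 ± 2.98, Gata4 at 22.0 ± 3.80 and Wt1 at 16.1 ± 0.785 (SD, n = 3). By level per kilobase in wild type, Bnc1 was higher than 91.0% of tested genes and Wt1 than 68.2%. In Lmnb1-/- explants these shares were 86.4% and 62.3%. The exon lengths are from GENCODE M21, which may differ from the gene models the counts were made with.

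The 6 abundant genes made up nearly the same proportions of their sum in both groups, while the sum itself was lower. Their summed level was 932, 959, 706 and 835 CPM in wild type and 685, 638 and 627 CPM in Lmnb1-/- explants. With TMM scaling every Lmnb1-/- library was below the lowest wild type library, replicate 3. The factors were 0.977 for that library and 1.02 for Lmnb1-/- replicate 1. On totals without scaling these 2 libraries change order, so the sums overlap. Bnc1 made up 35.2 ± 3.38% of the sum in wild type (SD, n = 4) and 33.0 ± 2.49% in Lmnb1-/- explants (SD, n = 3). Tbx18 made up 23.9 ± 3.92% and 24.3 ± 2.85%, and Wt1 7.79 ± 0.697% and 8.35 ± 0.173%, with the same n. Gata6 was at 12.8 ± 0.863% and 12.6 ± 1.75%, Gata4 at 11.6 ± 1.52% and 12.3 ± 1.90%, and Tcf21 at 8.74 ± 1.66% and 9.52 ± 2.58%. The ranges of the 2 groups overlapped for all 6 shares.

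**Figure D3:**
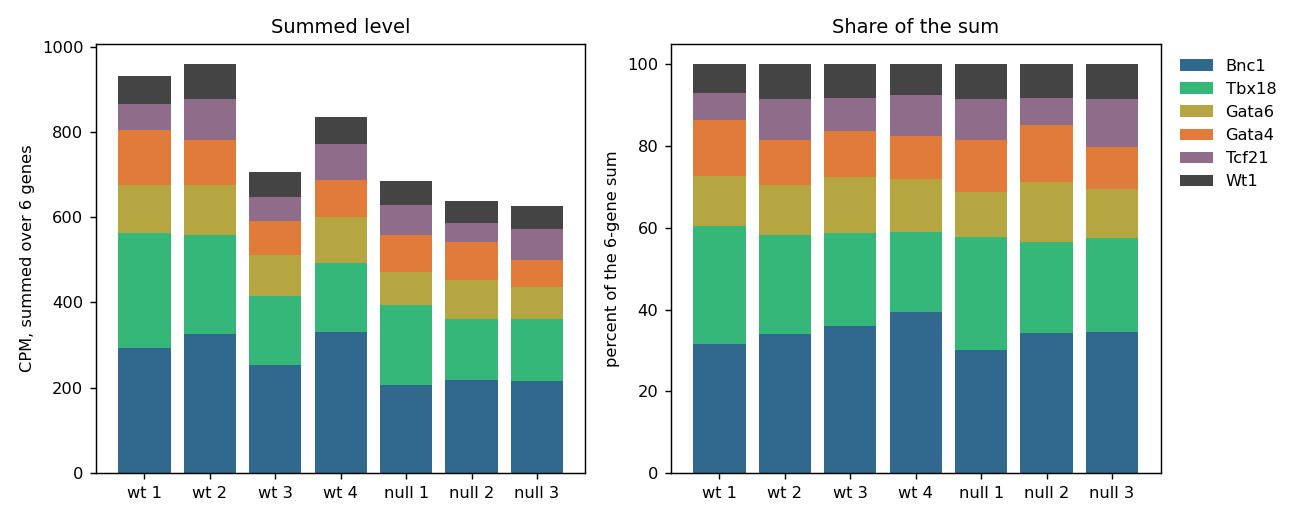
Summed CPM of Bnc1, Tbx18, Gata6, Gata4, Tcf21 and Wt1 (left) and each gene's percent of that sum (right) in the 4 wild type (wt) and 3 Lmnb1-/- (null) libraries, numbered by replicate. With TMM scaling the sums of 685, 638 and 627 CPM on the Lmnb1-/- side lie below the lowest wild type sum of 706 CPM. Without that scaling the sums overlap. The shares overlap for every gene.

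The tested genes varied together across the libraries to different degrees. Over the 7 libraries all 21 pairs had a positive Pearson correlation of log2 CPM, from 0.05 for Tcf21 with Gata4 to 0.91 for Bnc1 with Gata6. These values share the libraries, their scaling and the group difference. Around the group means 16 of the 21 pairs were positive, from -0.62 for Bnc1 with Scx to 0.83 for Tbx18 with Gata4. Over the same 7 libraries the genes most like Wt1 in log2 CPM, among those with a mean log2 CPM of at least 4, were Ssh1, Ascc2, Fmn1, Ap1b1 and Plxna1, with correlations from 0.98 to 0.99. They are the extreme of a search over 7891 genes, and none of the 5 passed the edgeR test.

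Relatives of the set were followed in lists of families and partners, and 0 of their tested members passed. Of 17 T-box genes only Tbx18, Tbx20 and Mga were tested, the others having at most 5 counts in any library. Tbx20, a cardiac T-box factor, was at 166 ± 25.0 CPM (SD, n = 4 wild type libraries) against 194 ± 14.4 CPM (SD, n = 3 Lmnb1-/- libraries). Mga, which encodes a large T-box and MAX-binding protein, was at 278 ± 27.6 and 344 ± 16.9 CPM with ranges that lay apart (log2 fold change 0.31, adjusted p = 0.224). Both estimates were above 0, opposite to Tbx18. The difference between Tbx18 and its relatives was not tested.

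Among class II bHLH genes Tcf21, Scx, Twist1 and Hand2 were tested, 3 below 0 and 1 above, and Hand1, Msc, Tcf15 and Ferd3l had no counts. Their E protein partner Tcf12 was at 108 ± 10.4 CPM (SD, n = 4 wild type libraries) against 76.6 ± 7.21 CPM (SD, n = 3 Lmnb1-/- libraries), with ranges apart and an adjusted p of 0.102. The GATA cofactor genes Zfpm1 and Zfpm2 had log2 fold changes of -0.67 and 0.15, with adjusted p-values of 0.525 and 0.747.

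Of 12 genes reported as WT1 targets, 9 were tested and 0 passed. Their median was -0.08 on the log2 scale, with 6 of the 9 below 0, as were 52.4% of all tested genes. Aldh1a2, which encodes the epicardial retinoic acid synthesis enzyme, was at 162 ± 19.8 CPM (SD, n = 4 wild type libraries) against 126 ± 0.689 CPM (SD, n = 3 Lmnb1-/- libraries), with ranges apart and an adjusted p of 0.200. Itga4, an integrin subunit of the epicardium, was at 59.9 ± 25.0 and 36.6 ± 6.43 CPM, with overlapping ranges. Cdh1, which encodes E-cadherin, had 3 counts over all 7 libraries. The 10 WT1 partner and EGR genes included 7 tested and 0 past the threshold, with Egr1 at a log2 fold change of -1.46 (adjusted p = 0.0935) and the coactivator gene Cited2 at 0.54 (adjusted p = 0.132).

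A wider list of 26 cardiac and mesodermal transcription factors had 20 tested genes, 16 of them below 0, and 0 calls. The list's median was -0.16 on the log2 scale, and 52.4% of all tested genes were below 0. Meis1, a homeobox gene, was at 83.8 ± 14.3 CPM (SD, n = 4 wild type libraries) against 55.9 ± 5.38 CPM (SD, n = 3 Lmnb1-/- libraries), with ranges apart and an adjusted p of 0.114. Of 5 tested EMT transcription factors 2 were below 0, 3 were above and 0 passed, with a median of 0.14 on the log2 scale. Zeb1 was at -0.46 and Twist1 at -0.26, and Snai1, Zeb2 and Prrx1 were at 0.18, 0.18 and 0.14.

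The surface and secreted products of the mesothelium did not pass either. Of 20 such genes 18 were tested, 10 below 0 and 8 above, and their median was -0.14 on the log2 scale. The Wnt agonist gene Rspo1 and the membrane linker gene Ezr had log2 fold changes of -0.96 and -0.46 (adjusted p = 0.0952 and 0.108). The keratin genes Krt8 and Krt18 of the same list were above 0, at 0.87 and 0.37 (adjusted p = 0.183 and 0.279). The list's summed level was 3823 to 5004 CPM in wild type and 3357 to 4330 CPM in Lmnb1-/- explants, so the groups overlapped. The sums of the 26 other cardiac and mesodermal transcription factors did not overlap, at 1494 to 1735 and 1335 to 1403 CPM, nor did those of the bHLH partners and Id genes, at 581 to 620 and 527 to 568 CPM.

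Markers of other cell types were read in the same libraries. Of all tested genes 52.4% were below 0 and 0.705% were called by edgeR. Mural genes, which mark smooth muscle and pericytes, had all 13 tested genes below 0, with a median of -1.02 on the log2 scale. There were 5 mural calls, Acta2, Actg2, Des, Cspg4 and Pdgfrb. The calls did not all hold on leaving out single libraries. With wild type 3, Lmnb1-/- 1 or Lmnb1-/- 2 left out, 0 of the 5 passed. Calls over all genes then fell from 76 to 4, 4 and 3. Cspg4 alone passed without Lmnb1-/- 3, Acta2 failed without wild type 2 or wild type 4, and Actg2 failed without wild type 2. The sum of the mural genes was 11366 to 13030 CPM in wild type and 8707 to 9504 CPM in Lmnb1-/- explants. Rgs5, a pericyte marker, had 6, 0, 31 and 0 counts in wild type and 1, 1 and 0 in Lmnb1-/- libraries, and the other 13 mural markers had counts in every library. Fibroblast genes summed to 13287 to 27186 and 10979 to 13153 CPM. Of the 12 tested, 10 were below 0 and 0 were called, with a median of -0.61 on the log2 scale. With TMM scaling these sums did not overlap either. On totals without scaling they do, as wild type replicate 1 and Lmnb1-/- replicate 3 change order. The part of these changes in the levels of the transcription factors, of which edgeR called 0, was not tested.

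Macrophage genes varied by library within both groups, from 51.7 to 281 CPM in wild type and from 30.9 to 495 CPM in Lmnb1-/- explants, with 7 of 11 tested and 0 calls. All 7 were above 0, with a median of 0.91 on the log2 scale, opposite in sign to the factors. Cardiomyocyte genes summed to 522 to 862 and 529 to 680 CPM, mostly from Myl7, Tnnt2 and Tnni1, while Myh7 and Actn2 had no counts. Endothelial genes summed to 62.2 to 88.9 and 65.8 to 89.7 CPM, with 4 of 10 tested. Of the neural crest genes 0 were tested, and Sox10 had no counts. Blood genes summed to 19.6 to 213 and 22.2 to 250 CPM. None of these 5 lists separated the groups by its sum except neural crest, at 1.03 to 2.11 and 0 to 0.643 CPM, where no gene had more than 4 counts in a library. Their part in the levels of the transcription factors was not tested.

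**Figure D4:**
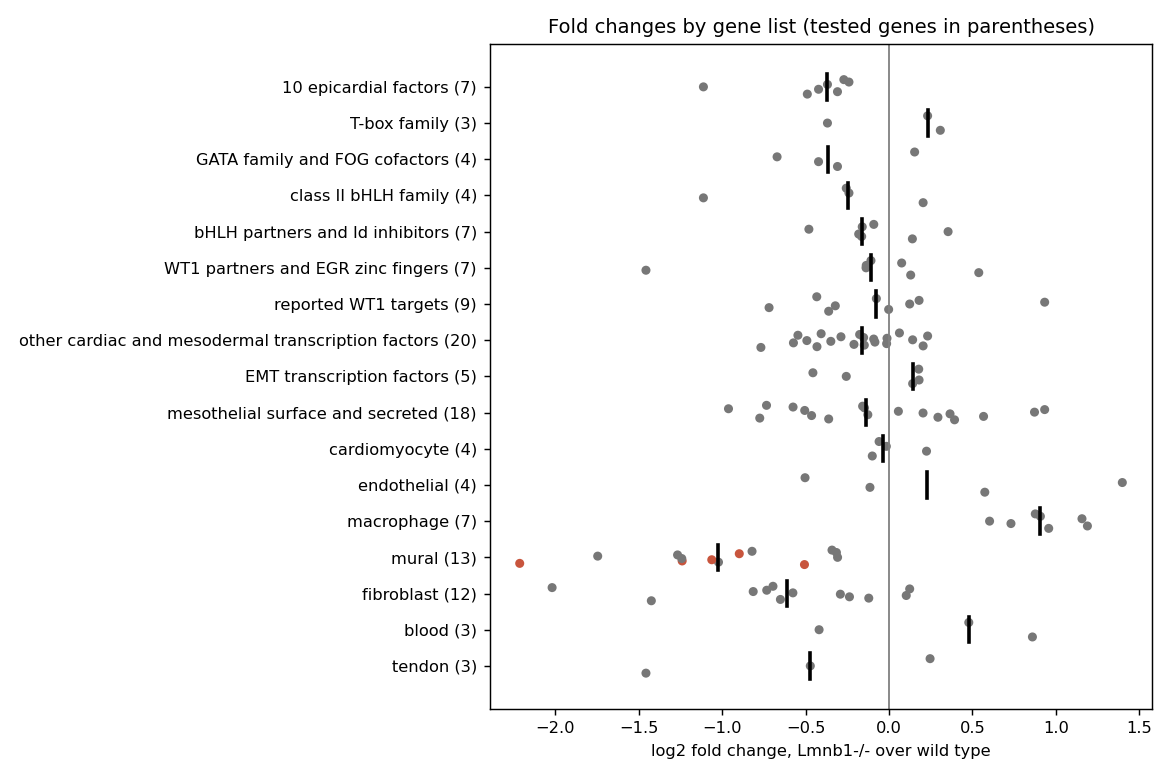
Log2 fold change of Lmnb1-/- over wild type (horizontal axis) for the tested genes of each list, with 1 point per gene, the list's median as a black line and genes past an adjusted p of 0.05 in red. The only red points are the 5 mural genes, and the 7 tested epicardial factors all lie below 0 with a median of -0.37.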

How the data were processed

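The authors deposited 1 table per library holding gene names and a pair of unlabelled columns of counts (whole numbers, not normalized). TopHat, edgeR and the build mm9 are named per the submitters' processing notes. The counting program, its annotation and what the columns mean are not given in the sources used here. The first column was used, and all 10 genes had 0 in the second. Exons of Tbx18, Bnc1 and Gata5 overlap RNAs of the opposite strand in GENCODE M21 (D030062O11Rik, 4833418N17Rik and Gata5os), and without strand, which the labelled kit does not keep, those reads cannot be told apart.

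Genes were filtered with filterByExpr, scaled by TMM and tested in R 4.3.3 by edgeR 4.0.16 (glmQLFit and glmQLFTest, robust, no covariate), with limma 3.58.1 for voom. Each SE was taken from the log2 fold change and its F statistic. Permutation tests used log2 CPM with a prior count of 2. The members and lists were chosen with earlier results of these data known. Of 217 list entries 215 matched a row. Named genes are the 10 factors, every called list member or the 2 of smallest p, Lmnb1, the 5 genes most like Wt1, and list members of highest or lowest level. A result that this rule would name is not reported here. Tbx20, Hand2, Zfpm1, Zfpm2, Gata1, Gata2, Gata3, Cdh1, Krt8, Krt18, Tead1, Tnnt2, Rgs5, Mkx, Fmod, Snai1, Zeb2, Prrx1 and genes named for having few or no counts were chosen after their values were seen. The procedure was tested on simulated data. Alternatives were RLE, unscaled totals, 2 other filters, DESeq2 1.42.0, limma voom, a replicate block, leaving out each library, sex, groups of adjacent library numbers in the deposited names, and both columns summed. Promoter sequences came from RefSeq (GRCm38.p6), which matched 5 of the 10 genes.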

Additional observations from a re-analysis of the deposited data

Results flagged for a closer look

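Of 27 quantities examined in the 4 wild type libraries, the 10 factors and the sums of 17 lists, 4 sums held a library whose gap to its nearest neighbour, as a share of the group's range, was above Dixon's 95% critical value. That level marks about 1 in 20 groups by chance, and the sums share libraries and some genes. None of the 10 factors was marked. The macrophage sum was 281 CPM in wild type replicate 4, against 51.7 to 83.5 CPM in the others. The sum of other cardiac and mesodermal transcription factors was 1735 CPM in wild type replicate 2, the shallowest library. In wild type replicate 1 the endothelial sum was 62.2 CPM and the mural sum 11366 CPM, each the lowest of its group.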

How the results depend on the processing

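The 7 factors tested in the main fit had log2 fold changes below 0 in each of the 122 values computed under the 18 alternatives. These alternatives reuse the same libraries, so the values are not independent. Scx was tested in 14 of the 18. Gata5, tested under some alternatives only, ran from -0.64 without Lmnb1-/- 3 to 0.18 without Lmnb1-/- 1. The median over the factors tested in the main fit stayed between -0.45 and -0.29 on leaving out single libraries. The number of factors called was 1, always Bnc1, with no count filter, DESeq2, male libraries only or library number groups as a block, and 0 to 1 on leaving out single libraries. Over all genes, 76 calls became 180 with no count filter, 175 with DESeq2, 46 with limma voom and 38 with sex as a covariate. They became 95 in male libraries only, 93 with library number groups as a block and 44 with both count columns summed. Leaving out single libraries gave 3 to 279. Leaving out wild type 1 gave 279, wild type 2, 3 or 4 gave 40, 4 or 28, and Lmnb1-/- 1, 2 or 3 gave 4, 3 or 13. Among the calls 39 were higher and 37 lower, and 47 and 26 on totals without scaling. The cause was not tested. With the replicate number as a block, 77 genes and 0 factors were called. The labels do not say that a number marks a shared litter. Same-numbered libraries deviated with correlations of 0.26, -0.16 and -0.09. With so few libraries these values cannot show whether the numbers pair them. Depth limits Scx, Gata5, Bnc2 and Tbx5, for which 3 counts make 0.965 to 3.10 CPM.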

Other observations

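Within wild type, Bnc1 and Tcf21 were higher in both male libraries (replicates 2 and 4, at 325 and 330 CPM for Bnc1 and 95 and 85.2 CPM for Tcf21) than in both female ones (replicates 1 and 3, at 294 and 253 CPM and at 61.8 and 58.0 CPM). Wt1, Tbx18, Gata4 and Gata6 did not separate this way. With 2 libraries of each sex this was not tested. All Lmnb1-/- libraries were male. The log2 fold changes of Bnc1 and Tcf21 were -0.62 and -0.52 within male libraries and -0.49 and -0.24 over all libraries.

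Krt8 and Kdr had log2 fold changes above 0, at 0.87 and 1.40, and 0 of the 2 passed the edgeR test. Krt8, an epithelial keratin gene, was at 42.4 ± 12.4 CPM (SD, n = 4 wild type libraries) against 80.0 ± 27.7 CPM (SD, n = 3 Lmnb1-/- libraries), with ranges that lay apart and an adjusted p of 0.183 by edgeR. Kdr, which encodes a VEGF receptor, had 12, 3, 5 and 7 counts in wild type and 25, 19 and 15 in Lmnb1-/- libraries, with an adjusted p of 0.122 by edgeR.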
